A study of Mus musculus with 9 samples.

Results

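The genes described here are the replication-dependent histone genes of the mouse, with the linker and variant histone genes that carry the same series of names. They were found in a RefSeq gene table of the GRCm38.p6 assembly as autosomal genes with a symbol of the series H1f, H2ac, H2bc, H3c or H4c and a number, with H4f16, or with an older Hist1 to Hist4 name. The rule gave 76 of 47038 autosomal genes, 71 by their symbol and 5 by an older name (H2bu2, H2bu1-ps, H2aw, H4bc24 and H2af-ps2). They comprise 11 genes of class H1, 21 of H2A, 19 of H2B, 12 of H3 and 13 of H4, and 5 of the 76 are annotated as pseudogenes. Each was measured with 1 kb on each side, called its window.

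The assay was whole-genome bisulfite sequencing, which reads an unmethylated cytosine as thymine and a methylated one as cytosine. The groups were splenic B cells of mice homozygous (HOM), heterozygous (HET) or wild type (WT) for Ile5482Asn in Kmt2d, an A>T change at position 98835228 of chromosome 15. KMT2D is a methyltransferase that adds methyl groups to lysine 4 of histone H3, mainly at enhancers. The names of the HOM and HET columns also carry ENU, the name of a chemical mutagen, and that of the WT column does not. The labels list 2 B cell samples for each genotype, enriched by magnetic removal of other cells, and 3 blood samples that were not analysed here. The table holds 1 set of counts for each genotype, called a library below, and the sources used here do not say if it is 1 sample or both combined. Age and the number of animals are not given in the labels.

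Replication-dependent histone genes are short genes without introns, whose messages end in a stem-loop in place of a poly(A) tail and are made when DNA is copied. H2A, H2B, H3 and H4 form the protein core around which DNA is wound, and H1 binds the DNA between cores. Most of the genes lie in clusters, which are transcribed at histone locus bodies organised by NPAT, and many H2A and H2B genes are paired head to head around a common promoter. The name series also covers genes that do not follow DNA replication. H1f0 and H1f10 are expressed outside S phase, H1f8 is known from oocytes and H1f7 from spermatids, and H1f6, H2ac1 and H2bc1 encode testis histones.

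The libraries held 9.85, 12.9 and 9.18 CpG reads per CpG in HOM, HET and WT over 21875444 CpGs. Within the histone windows they held 6.77, 8.68 and 6.22, or 40838, 52344 and 37492 CpG reads on 6030 CpGs. Levels are methylated over covering reads, with Wilson intervals, and differences are in percentage points with Newcombe intervals, both at 95%. These cover counting error only and treat neighbouring CpGs of a read as independent. With 1 library per genotype no difference has a replicate check, and each test compares libraries, not genotypes. A level from bulk cells cannot tell apart fewer methylated cells and fewer methylated CpGs per cell. Across the whole table HOM stood apart, at 72.3% against 75.6% in HET and 76.0% in WT. As a check of the cell label, the promoters of 6 B cell genes with at least 30 reads had a median level of 9.35% in HOM, 6.86% in HET and 11.8% in WT. The 4 promoters of T cell genes had medians of 38.0%, 33.1% and 35.7%, and the ranges of both lists overlapped. In the same libraries 2 NK cell promoters had 20.9%, 16.2% and 13.5%, and 2 myeloid promoters 34.5%, 29.5% and 28.9%. For 3 erythroid and platelet promoters the medians were 20.9%, 14.5% and 11.1%, in WT below that of the B cell genes. With so few promoters and such overlap, the check does not settle the label.

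The promoters of 6 genes are printed because they show the contrast that runs through the family, CpGs that are nearly all methylated or nearly all unmethylated, and because 4 of them belong to windows with the largest differences between HOM and WT. Each line holds the 250 bases before the transcription start, read 5′ to 3′ on the gene's strand from the RefSeq promoter table of GRCm38.p6, with CpGs in capitals. H2bc1, a testis H2B gene, lies on the minus strand at chr13:23934157-23934406. H2aw, an H2A gene, lies on the plus strand at chr11:58954435-58954684. H3c4 lies on the plus strand at chr13:23575513-23575762. On the minus strand lie H2ac19 at chr3:96240375-96240624, H4c6 at chr13:23551669-23551918 and H2ac22 at chr13:21787249-21787498.
H2bc1: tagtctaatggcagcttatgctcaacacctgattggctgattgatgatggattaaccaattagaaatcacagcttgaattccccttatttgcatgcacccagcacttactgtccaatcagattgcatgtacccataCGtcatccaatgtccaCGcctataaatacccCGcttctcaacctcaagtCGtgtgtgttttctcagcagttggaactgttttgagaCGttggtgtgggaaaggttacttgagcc
H2aw: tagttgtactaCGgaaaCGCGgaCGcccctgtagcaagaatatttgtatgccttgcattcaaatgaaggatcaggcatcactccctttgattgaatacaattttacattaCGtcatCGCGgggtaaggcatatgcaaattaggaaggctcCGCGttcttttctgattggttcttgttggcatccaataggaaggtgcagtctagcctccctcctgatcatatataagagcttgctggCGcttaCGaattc
H3c4: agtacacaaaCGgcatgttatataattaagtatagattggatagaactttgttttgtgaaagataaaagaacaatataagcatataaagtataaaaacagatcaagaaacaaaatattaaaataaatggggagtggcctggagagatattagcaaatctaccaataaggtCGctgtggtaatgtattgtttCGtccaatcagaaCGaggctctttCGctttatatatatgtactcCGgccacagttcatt
H2ac19: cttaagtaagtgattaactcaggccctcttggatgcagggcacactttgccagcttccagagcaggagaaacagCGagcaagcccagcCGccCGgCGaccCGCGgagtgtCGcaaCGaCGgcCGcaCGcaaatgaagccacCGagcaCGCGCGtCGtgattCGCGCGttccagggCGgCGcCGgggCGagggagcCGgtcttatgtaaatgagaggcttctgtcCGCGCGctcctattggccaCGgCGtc
H4c6: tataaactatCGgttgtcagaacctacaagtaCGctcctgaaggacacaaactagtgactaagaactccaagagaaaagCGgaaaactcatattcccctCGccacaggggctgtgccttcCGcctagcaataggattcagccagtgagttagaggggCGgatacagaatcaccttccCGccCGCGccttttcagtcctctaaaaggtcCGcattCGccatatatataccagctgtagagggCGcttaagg
H2ac22: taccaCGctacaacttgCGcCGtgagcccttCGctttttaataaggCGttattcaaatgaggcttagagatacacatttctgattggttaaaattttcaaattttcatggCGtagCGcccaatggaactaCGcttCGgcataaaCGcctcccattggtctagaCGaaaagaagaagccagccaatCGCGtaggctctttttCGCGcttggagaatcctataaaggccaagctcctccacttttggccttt

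In the printed H2bc1 promoter, with 5 CpGs, 46 of 52 CpG reads were methylated in HOM, 47 of 48 in HET and 13 of 13 in WT. The H2aw promoter, with 11 CpGs, had 0 methylated reads of 134, 103 and 122 in the same libraries. The other 4 promoters had at most 2 methylated reads in a library. At the CpGs printed here that had reads, the windows of H3c4, H2ac19, H4c6 and H2ac22 thus showed little of the differences described below.

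Most histone windows were almost free of methylation in all 3 libraries. Of the 76 windows, 71 had at least 3 CpGs and 30 CpG reads in each library and were tested. Their median level was 6.32% in HOM, 7.58% in HET and 6.02% in WT, while the other 44465 tested gene windows had medians of 74.2%, 77.2% and 77.8%. The other genes were not matched for length, and some replication-independent histone genes were also low, as given below. The mean of the 3 libraries was below 20% in 59 histone windows, or 83.1%, and in 1756 of the other windows, or 3.95%. The lowest levels in WT were those of H2ac13 (0 of 576 CpG reads, with an upper bound of 0.663%), H2bc18 (0.269%), H3c7 (0.290%), H2bc13 (0.297%) and H2ac20 (0.319%). H2ac23, H2ac24, H2bc23 and H4bc24 had no read in any library, and H4c17 had 23, 21 and 11 CpG reads in HOM, HET and WT, none of them methylated.

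The 12 windows above 20% fell into 2 kinds. Those between 20 and 65% were H2ac19, H2bu2, H2bc22, H2bc6 and H2bc4, of which H2bc22, H2bc6 and H2bc4 have an annotated gene of over 3 kb. H2bc6, annotated over chr13:23583670-23621124, had 55.9% in HOM, 60.3% in HET and 60.1% in WT. The 7 windows above 65% were the testis genes H1f6, H2ac1 and H2bc1, the germ cell genes H1f7 and H1f8, and the pseudogenes H1f11-ps and H2af-ps2. The highest were H2ac1 (88.5% in HOM, 94.3% in HET, 92.4% in WT) and H2bc1 (90.2%, 94.8% and 92.2%), neighbours at the end of the larger run of genes on chromosome 13. H1f7, H2af-ps2 and H1f11-ps came next in WT, with 85.0%, 83.8% and 81.0%.

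**Figure D1:**
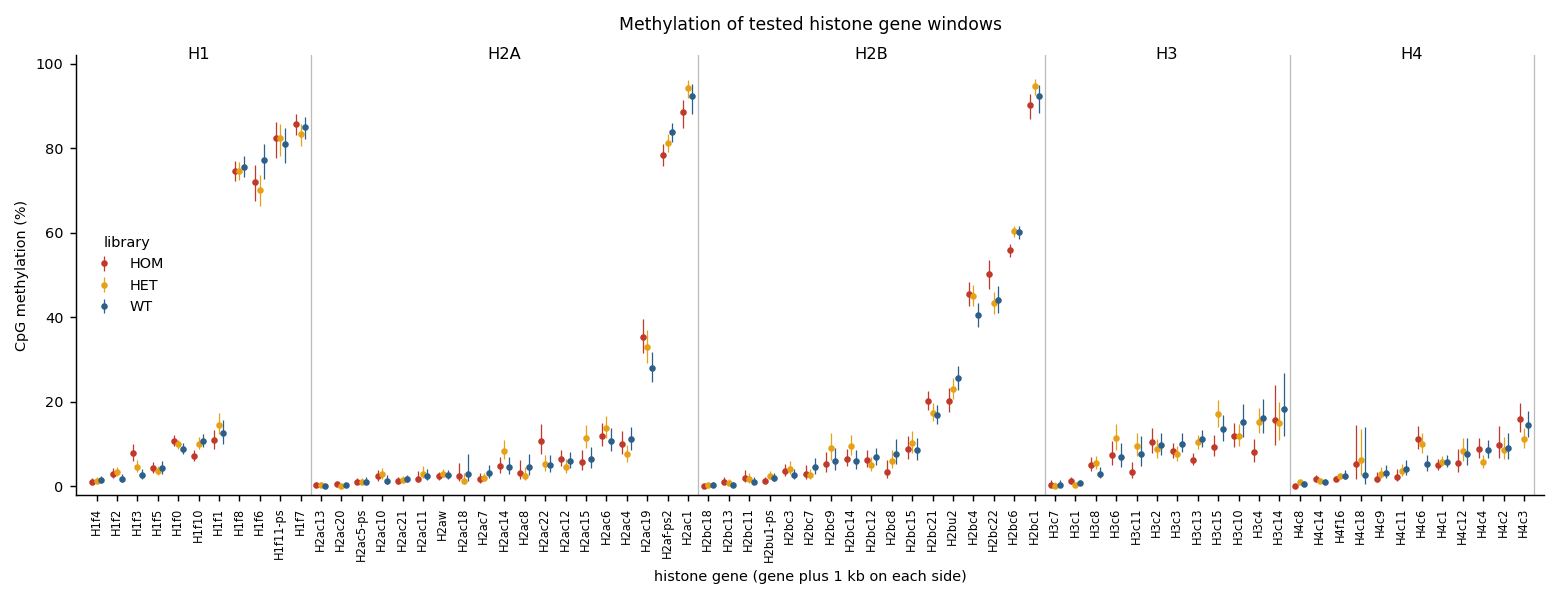
CpG methylation (%) of the 71 tested histone gene windows, 1 point per library (HOM, HET, WT) with its 95% Wilson interval, grouped by histone class and ordered by level in WT. In each class most points lie below 20%, and the windows above 65% are those of H1f6, H1f7, H1f8, H1f11-ps, H2ac1, H2af-ps2 and H2bc1.

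The histone windows differed little between HOM and WT. Over all of them, each CpG counted once, 22.4% of CpG reads were methylated in HOM and 23.1% in WT, a difference of -0.669 points (-1.26 to -0.0819). The other gene windows had 70.0% in HOM and 73.6% in WT, a difference of -3.64 points. Without the 3 genes on chromosome 6 the histone difference was -0.0870 points (-0.705 to 0.531). On that chromosome the window of H4f16, a gene for histone H4 outside the clusters, had 2036 CpG reads in HOM and 2181 in HET, against 901 in WT, at levels of 1.87%, 2.38% and 2.55%. The part of that read number in the pooled value was not tested beyond leaving the chromosome out.

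A window was called where it differed by at least 10 points with a Benjamini-Hochberg adjusted p below 0.05 in a two-sided Fisher's exact test over the 44536 windows tested. In HOM minus WT this held for 0 of 71 histone windows and 4.56% of all windows (0.397% higher, 4.16% lower). A window below 10% cannot fall by 10 points, and the median histone level was 6.02% in WT and 7.58% in HET. In most histone windows a called fall was thus not possible. The 0 calls here and in the comparisons below therefore say little about falls. With no limit of size, 12 of 71 histone windows passed the adjusted test, beside 46% of all windows. Of these 12, 6 were higher in HOM (2.84% of all windows) and 6 lower (43.2%). An unadjusted p below 0.05 was found in 17 histone windows, beside at least the 46% of all windows that passed with adjustment. The difference was below 0 in 39 of 71 histone windows (81.8% of all windows) and above 0 in 32 (18.1%). Its median was -0.272 points over the histone windows and -3.30 over all windows. With counts divided by the number of CpGs in a read length, 0 histone windows and 13.6% of all windows passed the adjusted Fisher test. With levels scaled so that the other gene windows were equal, 12 histone windows passed, 9 higher and 3 lower, beside 26.3% of all windows (14.8% higher, 11.5% lower), and 9 of them were among the 12 above.

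At a like level the share differed by level. Among windows with a mean below 20%, 6 of 59 histone windows passed the adjusted test between HOM and WT, or 10.2%, beside 30.9% of the other 1756. The median difference there was -0.152 points in the histone windows and -0.891 in the others. Between 20 and 65%, 5 of 5 histone windows passed (100%), beside 50.7% of the other 10388, with medians of 4.95 and -2.80 points. At 65% and above, 1 of 7 passed (14.3%), beside 45.5% of the other 32321, with medians of -2.05 and -3.54 points. Histone windows are short, and their number of reads was not matched to that of the other genes.

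The HET and WT libraries gave fewer differences. The pooled level was 22.9% in HET and 23.1% in WT, a difference of -0.148 points (-0.707 to 0.409). Of 71 histone windows 0 were called, beside 1.79% of all windows (0.712% higher, 1.08% lower). An unadjusted p below 0.05 was found in 12, beside at least the 21.5% of all windows that passed with adjustment. At any size 2 passed the adjusted test (21.5% of all windows), both higher in HET (8.53% of all windows) and 0 lower (13%). These were H4c6 and H2ac15. Differences that did not pass were H2ac19 (4.92 points), H2bc4 and H3c6 (4.56 each) on the higher side, and H1f6 (-7.10), H2ac4 (-3.55), H4c3 (-3.36), H3c14 (-3.31) and H3c10 (-3.24) on the lower. The difference was below 0 in 34 histone windows (56.5% of all windows) and above 0 in 37 (43.5%), with a median of 0.0942 points, against -0.435 over all windows. Beside this, 9 T cell marker genes had median window levels of 64.1% in HOM, 71.7% in HET and 65.2% in WT. Of these, 5 passed as higher in HET than in WT (8.53% of all windows). For 10 B cell genes the medians were 67.1%, 68.9% and 71.9%. Of these, 6 passed as lower in HET than in WT (13% of all windows), and 9 as lower in HOM than in WT (43.2%). Their part in the histone values was not tested.

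HOM minus HET shares its libraries with both comparisons above. The pooled difference was -0.521 points (-1.06 to 0.0207), against -3.26 in the other gene windows. Again 0 of 71 histone windows were called, beside 3.55% of all windows (0.393% higher, 3.15% lower). An unadjusted p below 0.05 was found in 18, beside at least the 44.3% of all windows that passed with adjustment. At any size 15 histone windows passed the adjusted test (44.3% of all windows). Of the 15, 4 were higher in HOM (2.73% of all windows) and 11 lower (41.6%). HOM was below HET in 40 histone windows (81.1% of all windows) and above it in 31 (18.9%), with a median of -0.244 points in the histone windows and -2.85 over all windows. Counted per read, 0 histone windows passed in HET minus WT or in HOM minus HET, beside 1.1% and 12% of all windows.

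**Figure D2:**
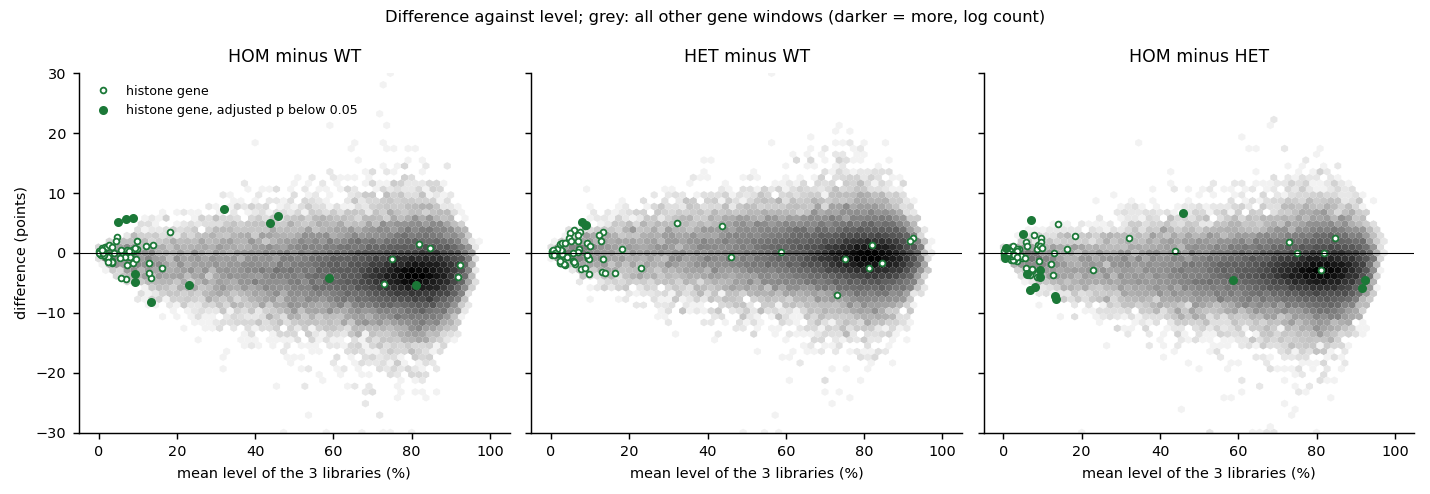
Difference in methylation (percentage points) against the mean level of the 3 libraries (%) for HOM minus WT, HET minus WT and HOM minus HET. Green circles are the 71 histone windows, filled where the adjusted p was below 0.05, and grey hexagons count all other gene windows on a log scale within the range of 30 points that is drawn. Most histone windows sit near 0 at low levels, while the grey cloud of HOM minus WT is centred below 0.

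H3 was the class with the clearest lower pooled level in HOM. Its 12 windows together had 6.50% in HOM, 8.32% in HET and 8.40% in WT. HOM minus WT was -1.90 points (-2.84 to -0.981) and HOM minus HET -1.82 points (-2.65 to -0.976). In the other classes the interval of HOM minus WT included 0. H3 genes encode the histone whose lysine 4 is the substrate of KMT2D, and this is background with no bearing that was tested.

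H3c4, in the larger run on chromosome 13 (chr13:23575763-23576266), had 8.16% in HOM, 15.3% in HET and 16.3% in WT. HOM lay below both other libraries. HOM minus WT was -8.14 points (-13.1 to -3.36) and HOM minus HET -7.17 (-11.1 to -3.02). The adjusted p was 0.0034 for HOM minus WT and 0.0033 for HOM minus HET in Fisher's exact test. Within the annotated gene the levels were 0.610%, 3.70% and 1.12% in the same order of libraries, and in the flank after the gene 36.9%, 47.6% and 47.7%. The flank before it held 0 methylated reads of 144 in HOM and 127 in WT, and 0.413% in HET. In bins of 200 bp across the window, each interval of HOM minus WT and of HOM minus HET included 0. The bin starting 600 bp from the gene's left edge, beyond its end, had 3 CpG reads in HOM, 25 in HET and 22 in WT. In the bin starting 1000 bp from that edge the levels were 53.3%, 55.3% and 53.1%. The part of uneven reads in the window's difference was not tested.

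H3c13, on chromosome 3 (chr3:96268654-96269155), had 6.37% in HOM, 10.4% in HET and 11.2% in WT, and HOM minus WT was -4.87 points (-7.32 to -2.49). The difference lay before the gene. The upstream flank had 23.8% in HOM, 32.7% in HET and 43.7% in WT, and HOM minus WT there was -19.9 points (-27.4 to -12.0). From 600 to 401 bp before the gene the levels were 18.1%, 36.9% and 48.0% in HOM, HET and WT, on 94, 168 and 98 CpG reads. From 200 bp before the gene to its start no methylated read was seen in any library.

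H3c15 and H3c11 differed between HOM and HET, with WT between them. H3c15 had 9.35% in HOM, 17.1% in HET and 13.6% in WT, and HOM minus HET was -7.70 points (-11.7 to -3.69). Of the 173 CpGs of this window 138 had no read. In its most methylated bin of 200 bp the levels were 56.25% in HOM, 58.27% in HET and 67.05% in WT, on 64, 127 and 88 CpG reads. Each bin's interval of HOM minus HET included 0. The part of uneven reads in the window's difference was not tested. H3c11 had 3.37%, 9.62% and 7.66% in the same libraries, and HOM minus HET was -6.25 points (-9.58 to -2.87). In the upstream flank of H3c11 the levels were 2.70% in HOM, 21.1% in HET and 8.06% in WT. In H3c1 the direction was opposite and the size small, 1.22% in HOM against 0.329% in HET, and 0.728% in WT.

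H4 windows were low in every library, 4.29% in HOM, 4.24% in HET and 4.56% in WT over the class. H4c6 (chr13:23551286-23551668) was the member that passed the adjusted test against WT in both mutants. It had 11.3% in HOM, 62 methylated of 620 CpG reads in HET and 5.36% in WT, or 5.90 points more in HOM (2.63 to 9.29) and 4.64 more in HET (1.60 to 7.70) than in WT. The upstream flank had 11.4% in HOM, 10.2% in HET and 5.26% in WT. Its bin of 200 bp starting 1000 bp from the gene's left edge had 52.8%, 71.1% and 47.6%, on 53, 45 and 21 CpG reads. Only a bin of the downstream flank had a HOM minus WT interval without 0 (2.33 to 47.65), at 48.5% in HOM, 34.3% in HET and 20.8% in WT. The part of uneven reads in the window's difference was not tested. The gene itself had 0%, 0.775% and 0.472%. H4c8 differed between HOM and HET by -0.834 points, with 0.112% in HOM, 0.946% in HET and 0.509% in WT. H4c3 had 15.96%, 11.2% and 14.6% in HOM, HET and WT, and its difference of 4.76 points in HOM minus HET had an adjusted p of 0.055 in Fisher's exact test. In H4c4 the same difference was 3.07 points, at 8.87% in HOM, 5.81% in HET and 8.52% in WT, and did not pass.

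The H2A class had 15.3% in HOM, 15.5% in HET and 15.1% in WT, and the 16 members below 20% had 3.72%, 4.11% and 3.73%. H2ac19 (chr3:96239779-96240374) had the highest HOM minus WT difference of the tested histone windows, with 35.5% in HOM, 33.0% in HET and 28.1% in WT, or 7.39 points (2.03 to 12.7). No CpG of the gene itself had a read, 66 of 66, so the window's level came from its flanks. The upstream flank had 61.5% in HOM, 44.8% in HET and 43.9% in WT, a difference of 17.6 points in HOM minus WT (10.2 to 24.7). Its bins of 200 bp went both ways. Starting 1000 bp from the gene's left edge the levels were 92% in HOM, 76.2% in HET and 67.9% in WT, and starting at 1200 bp 88.2%, 85.4% and 95.4%. The bin starting at 600 bp had no methylated read among 83, 155 and 158 CpG reads. The part of uneven reads in the flank's difference was not tested.

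H2ac22 had 10.7% in HOM, 5.22% in HET and 5.02% in WT, with HOM above WT by 5.67 points (1.70 to 10.1). It had 0 methylated reads of 66 and 181 within the gene in HOM and HET, and 0.709% in WT. H2ac15 stood out in HET, with 5.87% in HOM, 11.6% in HET and 6.48% in WT. The flank after H2ac15 had 15.8%, 28.6% and 19.1% in these libraries. H2ac14, a pseudogene, had 4.79% in HOM, 8.39% in HET and 4.50% in WT, and HOM minus HET was -3.60 points. H2af-ps2, a transcribed pseudogene far from the clusters, had 78.5% in HOM, 81.3% in HET and 83.8% in WT, and HOM minus WT was -5.36 points (-8.68 to -2.05).

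The H2B class had 28.3% in HOM, 31.7% in HET and 27.6% in WT. HET was 4.09 points above WT (3.10 to 5.07), but in the 12 members below 20% HET minus WT was 0.573 points (-0.145 to 1.29), and the long gene H2bc6 supplied 4122, 5538 and 3701 CpG reads in HOM, HET and WT. The 3 long H2B genes with reads did not move together between HOM and WT. H2bc22 had 50.2% in HOM, 43.5% in HET and 44.1% in WT, 6.08 points higher in HOM than in WT (1.35 to 10.8). H2bc4 had 45.5%, 45.1% and 40.6%, 4.95 points higher in HOM than in WT (0.982 to 8.89). For H2bc6, whose levels are given above, HOM minus WT was -4.25 points (-6.43 to -2.06). The compact gene H2bu2 on chromosome 11 had 20.3% in HOM, 23.1% in HET and 25.6% in WT. Its downstream flank had 42.2%, 43.2% and 57.8%, and HOM minus WT there was -15.5 points (-23.2 to -7.60).

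Among the H1 genes of the clusters H1f3 (chr13:23555032-23555807) was higher in HOM, with 7.81% in HOM, 4.69% in HET and 2.65% in WT. HOM exceeded WT by 5.16 points (2.81 to 7.59). The upstream flank had 22.4%, 18.9% and 14.4% in HOM, HET and WT, and the gene 0.356%, 0.986% and 0.904%. In bins of 200 bp across this flank each interval of HOM minus WT included 0. The bin starting 600 bp before the gene had 36.5% in HOM, 34.7% in HET and 20% in WT, on 63, 49 and 20 CpG reads. The part of uneven reads in the window's difference was not tested. H1f1, H1f2, H1f4 and H1f5 had at most 14.7% in any library, and none of them passed the adjusted test. H1f6, in the same run, had 71.9% in HOM, 70.0% in HET and 77.1% in WT. HET minus WT was -7.10 points in its window (adjusted p = 0.061, Fisher's exact test), and within the gene HET had 56.0% against 67.6% in WT, which passed the 10 point rule.

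The H1 genes outside the clusters are not replication-dependent. H1f10 on chromosome 6 had 7.29% in HOM, 10.2% in HET and 10.8% in WT, and HOM minus WT was -3.48 points (-5.53 to -1.46). The gene had 0.744%, 0.607% and 0.423%, and its downstream flank 45.4%, 56.6% and 57.9%. H1f0 on chromosome 15 had 10.8% in HOM, 9.93% in HET and 8.80% in WT, which did not pass the adjusted test, although within the gene HOM had 14.2% against 9.71% in WT. H1f7 and H1f8 had 85.8% and 74.7% in HOM, 83.3% and 74.7% in HET, and 85.0% and 75.7% in WT. H1f11-ps had 82.4%, 82.3% and 81.0%.

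Within the 59 low windows, pooled, the flanks were more methylated than the genes. The annotated genes together had 2.65% in HOM, 2.41% in HET and 2.14% in WT, and their flanks 10.04%, 10.8% and 10.7%. H4 genes had 0.196%, 0.165% and 0.182%, and H2A genes 0.240%, 0.296% and 0.280% in the same libraries. In H3 genes the levels were 0.269%, 0.924% and 0.772%, and their flanks had 8.30% in HOM, 10.5% in HET and 10.3% in WT. H1 genes had 4.53%, 4.31% and 3.27%, and their flanks 9.53%, 10.7% and 9.89%. The H2B class went the other way, with 6.87% in HOM, 6.40% in HET and 5.49% in WT in the genes and 5.45%, 5.74% and 5.29% in the flanks. In the H2B genes, H2bc21, annotated over 2667 bp, held 158 of 163 methylated reads in HOM, 152 of 157 in HET and 125 of 130 in WT. The flanks given for a class can hold neighbouring genes of another class.

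Levels around the transcription start were taken for the low members, which were chosen for a window level below 20%. That choice sets them below unselected genes in advance, so the values describe the profile and test nothing. In the first 100 bp after the start of 52 compact genes, 0.106% of CpG reads were methylated in HOM, 0.169% in HET and 0.206% in WT. In the other 31329 promoters the same bin had 13.3%, 14.7% and 14.3%. From 1000 to 901 bp before the start the histone genes had 19.8%, 19.6% and 18.5% in HOM, HET and WT, and the other promoters 44.5%, 47.8% and 47.7%. The other promoters hold genes of every kind and level, and no likeness beyond the distance was sought.

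**Figure D3:**
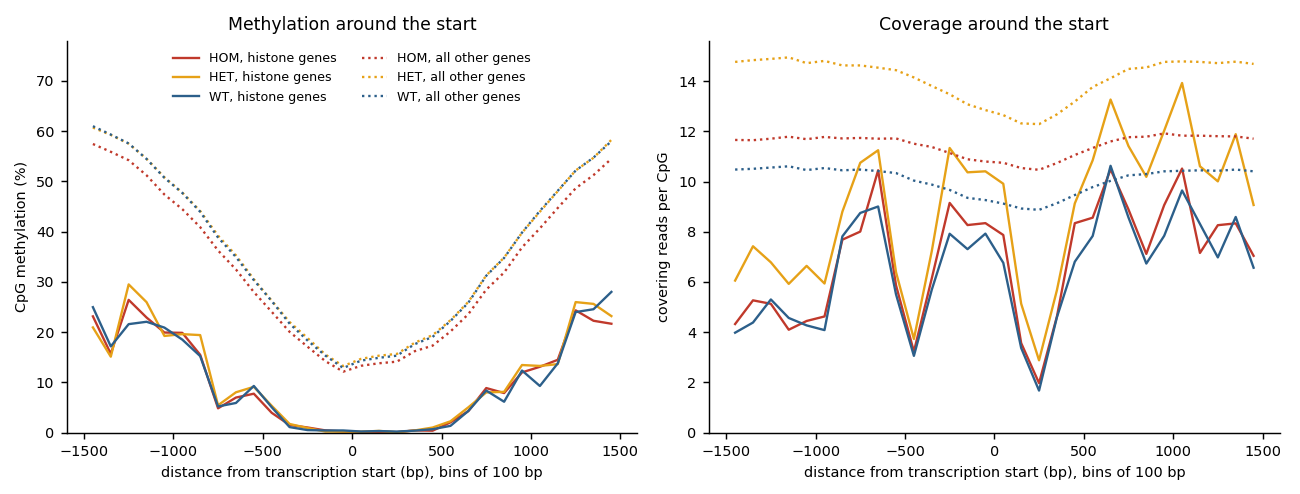
CpG methylation (%, left) and covering reads per CpG (right) in bins of 100 bp by distance from the transcription start (bp). Solid lines are 52 compact histone genes whose window was below 20%, and dotted lines all other promoters, for HOM, HET and WT. Histone genes are near 0% over the start in the 3 libraries, and their coverage dips inside the gene.

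A promoter window, 250 bases before to 50 after the start, was at hand for 66 of the 76 genes, with 67 starts. It was methylated in the 5 germ cell genes. H1f8 had 93.2% in HOM, 84.1% in HET and 90.8% in WT, and H1f7 had 92.7%, 90.9% and 91.1%. H2bc1 had 90.6%, 95.4% and 100%, on 64, 65 and 17 CpG reads. H2ac1 had 84.9%, 98.6% and 81.0%, on 73, 73 and 21. H1f6 had 100%, 71.1% and 89.5%, on 16, 45 and 19 reads, so that the order of these libraries is loosely set. Every other promoter with reads was at 2.27% or less in each library.

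The letters of these promoters differed by class. TATAAA, the core of the TATA box, was found on either strand in 35 of 67 histone promoters (52.2%) and in 13.5% of the other 31329 promoters of the same length. CCAAT, bound by NF-Y, was in 82.1% against 37.2%, in each of the 18 H2A, 17 H2B and 10 H3 promoters, and in 3 of 12 H4 promoters. The octamer ATTTGCAT, bound by OCT1, was in 20.9% against 1.70%, in 7 H2A and 7 H2B promoters. GCGGAC, from the site of the H4 factor HINFP, was in 31.3% against 9.58%, and in 9 of 12 H4 promoters. AAACACA, known as the H1 box, was in 13.4% against 7.27%, and in 5 of 10 H1 promoters. The methylated promoters of H2bc1 and H2ac1 held each of these motifs except that of HINFP. These searches were for exact letters on both strands, none of the motifs contains another, and a match is no measured site.

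In 10 pairs an H2A and an H2B gene started in opposite directions, 164 to 281 bp apart with a median of 204.5. The interval between the starts had no methylated read in HOM or HET in 7 of them, H2bc13 with H2ac13, H2ac15 with H2bc15, H2ac22 with H2bc22, H2ac12 with H2bc12, H2ac11 with H2bc11, H2ac8 with H2bc8, and H2bc7 with H2ac7. In WT the level was 1.77% for H2ac11 with H2bc11 and 0% for the other 6. Some of these rest on few reads. H2ac8 with H2bc8 had 1 CpG, with 9, 13 and 7 CpG reads in HOM, HET and WT. H2ac15 with H2bc15 had 3 CpGs, with 38, 30 and 21. The testis pair H2bc1 and H2ac1 had 86.8% in HOM, 97.1% in HET and 89.5% in WT between its starts, on 68, 69 and 19 CpG reads. The remaining pairs, H2bc23 with H2ac23 and H2ac24 with H4bc24, had no read.

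The genes lie in 11 runs, taken as members less than 250 kb apart, of which 7 hold 1 gene. On chromosome 13 a run of 24 spans chr13:21715711-22043658 and a run of 32 spans chr13:23531044-23934913. A run of 10 lies at chr3:96219885-96270192 and one of 3 at chr11:58948911-58955192. The runs alternate between bare gene windows and methylated DNA between them. In the run of 32 the windows had 25.3% in HOM, 26.9% in HET and 24.4% in WT, the long genes and the testis pair included, and the DNA between had 77.1%, 80.3% and 82.3%. HOM minus WT was 0.912 points inside the windows (-0.00696 to 1.83) and -5.16 between them (-5.88 to -4.44).

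The other runs had the same layout. On chromosome 3 the windows had 11.5% in HOM, 10.1% in HET and 11.1% in WT, against 76.2%, 81.0% and 79.6% between them, and HOM minus WT was 0.399 inside (-0.812 to 1.61) and -3.46 between (-5.49 to -1.42). In the run of 24 the windows had 11.5%, 13.1% and 12.02%, and the DNA between had 50.6% in HOM, 52.4% in HET and 51.9% in WT, with a HOM minus WT difference of -1.30 points between (-2.08 to -0.510). On chromosome 11 HOM was below WT in both parts, with differences of -3.59 points inside (-5.55 to -1.63) and -11.7 between (-18.5 to -5.09). CpGs were denser inside the windows, at 22.5 per kb against 7.86 between them in the run of 32. Of the 76 windows 57 overlap another histone window, and all merge into 42 stretches, so neighbouring genes share values.

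**Figure D4:**
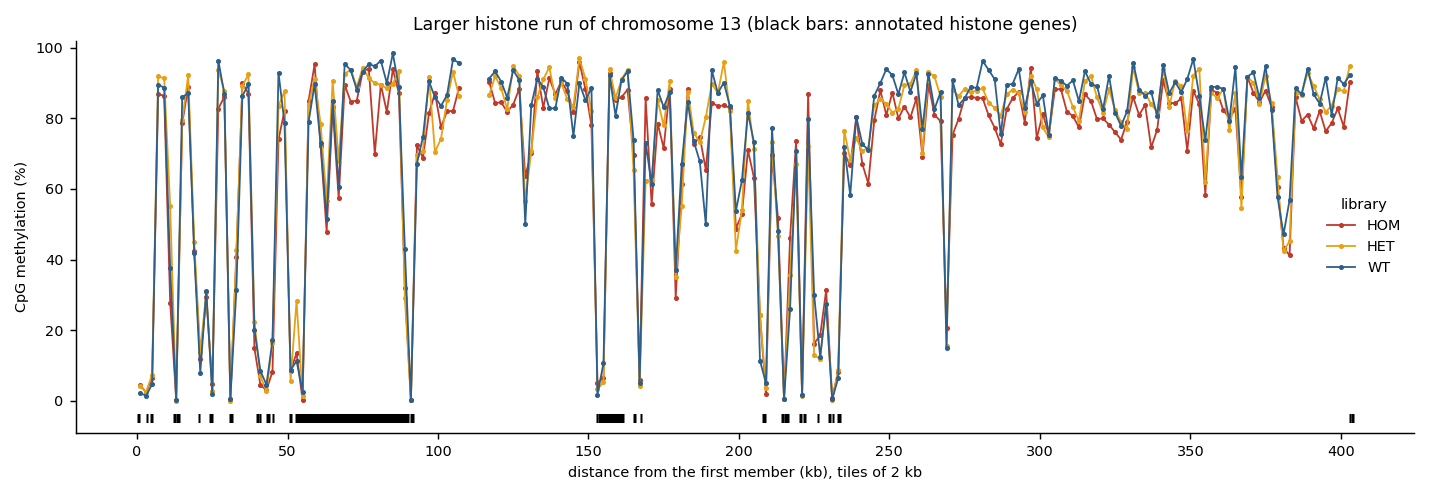
CpG methylation (%) in tiles of 2 kb along the run of 32 genes on chromosome 13, by distance from its first gene (kb), 1 line per library. Black bars mark annotated histone genes, the 2 long ones being H2bc6 and H2bc4. Methylation falls to near 0% at compact genes in each library, and between them the HOM line mostly lies below the WT line.

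Many histone CpGs had no read in any library. This was so for 1534 of 6030 CpGs in the windows (25.4%) and for 31.4% of CpGs within the genes, against 5.07% within all other genes. By class, the share within genes was 50.6% in H3, 43.0% in H2A, 32.1% in H2B and 18.7% in H4, and 0.505% in H1. Coverage fell to 1.97 reads per CpG in HOM, 2.88 in HET and 1.67 in WT from 200 to 299 bp after the start, where 52.5% of CpGs had no read. Sequence that occurs in more than 1 histone gene moved with this. Of the 67 promoters, 55 shared no stretch of 50 bases with another member, and 1 of their 630 CpGs was without a read (0.159%). In the 10 promoters with at least 60% of such stretches shared, 184 of 227 CpGs were without a read (81.1%). These 10 belong to H3c14, H3c15, H2ac18, H2ac19, H2ac23, H2ac24, H2bc23, H4bc24, H4c17 and H4c18. The part of shared sequence in the missing reads was not tested, nor was the coding sequence compared.

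**Figure D5:**
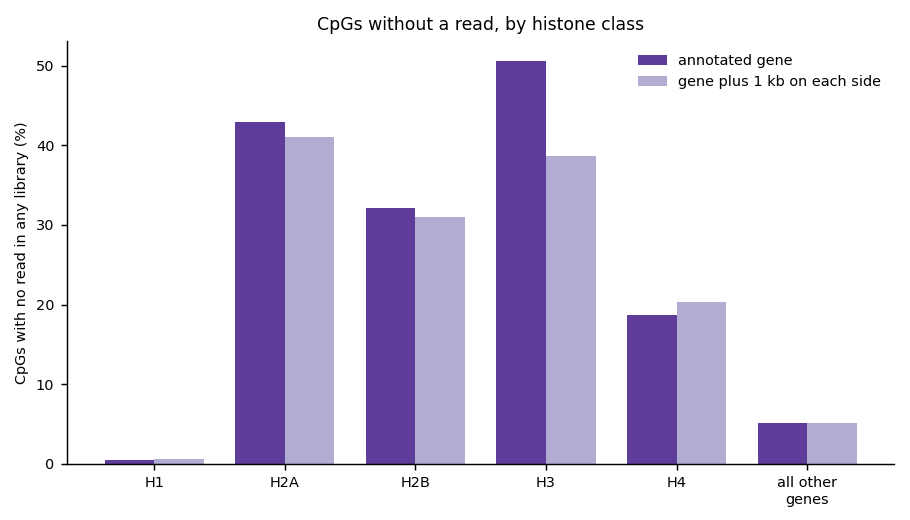
Share of CpGs (%) with no read in any of the 3 libraries, by histone class and for all other autosomal genes, within the annotated gene (dark bars) and within the gene plus 1 kb on each side (light bars). H3, H2A and H2B genes have the highest shares, and H1 genes 0.505%.

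Genes that serve the histone genes did not share their low level. A list of 28 genes for the transcription and processing of histone messages had a median window level of 53.1% in HOM, 56.5% in HET and 55.6% in WT, and a median HOM minus WT difference of -3.37 points, near that of all genes. Of the 28, 18 passed the adjusted test as lower in HOM than in WT and 0 as higher. Of the same 28, 3 were called, all lower in HOM, beside 4.56% of all windows called (4.16% lower). The called genes were Mif4gd (39.2% in HOM, 50.3% in WT), which binds the stem-loop binding protein SLBP, Casp8ap2 (65.9% and 76.9%), a component of the histone locus body, and Cdk2 (41.9% and 52.8%), the kinase that acts on NPAT. Npat itself had 49.3% in HOM, 52.5% in HET and 52.4% in WT, and Slbp 34.2%, 35.0% and 40.9%.

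Of 14 replication-independent histone genes tested, 5 passed as lower in HOM than in WT and 0 as higher, and H1f0, H1f7, H1f8 and H1f10 are in both this list and the family. H3f3a, which encodes the replacement histone H3, had 28.1% in HOM and 36.6% in WT. Low levels were not confined to the family. H2az1 had 5.07% in HOM, 4.66% in HET and 6.02% in WT, and H2ax 9.36%, 9.94% and 7.94%. H3f3b had 8.39%, 10.8% and 9.65%, and H2aj 11.1%, 14.6% and 11.6%. The median of the 14 in WT was 42.5%. Of 13 histone chaperones and importers, 12 passed as lower and 0 as higher, with a median difference of -5.08 points. Against these counts stand 43.2% of all windows that passed as lower in HOM.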

How the data were processed

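Whole-genome bisulfite libraries of splenic B cells were analysed, 1 per genotype. The deposited table gives raw counts per CpG, the methylated reads and the covering reads, per the file headers; the build is mm10 per the submitters' processing notes. These notes name Bismark with Bowtie2, Trim Galore 0.2.8 and Picard 1.91 for some samples, and MethylDackel with BWA 0.7.13 and Picard 2.3.0 for others. Which set made the columns, and its filters, are not given in the sources used here. Per the labels' protocols, 200 ng of DNA sheared to 800 bp was sequenced in read pairs of 150 bp. No value column was left unmapped.

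From the counts, sums per window (gene plus 1 kb) were computed with Python 3.11.15, numpy 2.4.6, scipy 1.17.1 and pandas 2.3.3, and drawn with matplotlib 3.10.9. Autosomal windows that held 3 or more CpGs and 30 or more CpG reads per library entered a two-sided Fisher's exact test, Benjamini-Hochberg adjusted over all of them, which was tested on simulated data. Gene positions and promoter sequences were from RefSeq tables of GRCm38.p6, the assembly of mm10, without a genome sequence. H1f9 was not analysed here. The depth, 9.18 to 12.9 reads per CpG, sets the counting intervals.

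The genes named were those with the 5 highest and 5 lowest levels in WT, those past the adjusted test (up to 10 per comparison), those with the 5 largest differences each way, those outside the clusters and those without a testable window. H4c8, H3c1 and H2ac14 in HOM minus HET, and H2bc6 in HOM minus WT, were added after their values were seen to account for each pass, and other genes are named as members of a pair, a class or a set without reads. The gene family, the gene lists and the tests were chosen with earlier results of these data known. Alternatives changed the flank, the coverage minimum, the size of difference, the members and the counting; those on long genes, on counts at any size and on single genes were chosen after seeing the data.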

Additional observations from a re-analysis of the deposited data

How the results depend on the processing

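The pooled histone difference was small enough for its value to depend on the window and the members. For HOM minus WT it was -1.27 points with 2 kb on each side, and 2.97 points after the difference over all other gene windows was subtracted. In the other alternatives tried it lay between -0.909 and -0.0870. HET minus WT was -0.726 points without the genes over 3 kb, a choice made after seeing the data, and between -0.415 and 0.338 in the others. HOM minus HET was -1.30 points with 2 kb on each side, -1.07 without the linker histone genes outside the clusters, 2.74 after subtraction of the other windows and 0.0530 without the genes over 3 kb. The cause was not tested.

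Counts of calls, 0 of 71 in each comparison as reported, were 8, 1 and 7 at 5 points for HOM minus WT, HET minus WT and HOM minus HET, beside 23.9%, 8.82% and 19.2% of all windows. With 2 kb on each side 2 of 72 were called in HOM minus WT (H3c11 and H4c18), 1 in HET minus WT (H3c14) and 1 in HOM minus HET (H3c11), beside 3.85%, 1.56% and 2.96% of all genes. Within the gene alone 1 of 66 was called in HET minus WT (H1f6; 2.16% of all genes) and 1 in HOM minus HET (H2ac1; 3.83%), and with at least 5 reads per CpG 1 of 71 in HOM minus HET (H3c11; 2.71%). Passes at any size, 12, 2 and 15 as reported, were 4, 1 and 3 within the gene alone (46.9%, 21.8% and 45% of all genes), 7, 1 and 8 with at least 5 reads (42.2%, 15.5% and 41.3%), and 0, 0 and 0 counted per read (13.6%, 1.1% and 12%). With 2 kb they were 18, 8 and 22 (49.7%, 22.9% and 47.7%), of which 12, 3 and 17 were lower, against 6, 0 and 11 lower as reported. Scaled to equal level over the other windows, HOM minus WT passed for 9 higher and 3 lower and HOM minus HET for 6 and 6 (15.1% and 11.6% of all windows), against 6 and 6, and 4 and 11, as reported.

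Within the gene alone, where few reads were methylated, the difference between HOM and WT turned for H1f10 (0.322 points), H2ac22 (-0.709), H4c6 (-0.472) and H1f3 (-0.548). There HOM minus HET turned for H1f10 (0.138), H1f3 (-0.630) and H2bc1 (3.63), and with 2 kb on each side for H3c1 (-0.312). Counted per read, which leaves each level and difference as it was, 29 of 29 differences of single genes that had passed missed the threshold. No paired analysis was possible because the deposited columns carry no replicate number and each genotype has 1 library, and for the same reason no library could be left out. Depth limits windows such as that of H4c18, with 56, 81 and 36 CpG reads in HOM, HET and WT, and nothing can be said of CpGs without a read.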
